A study of Homo sapiens with 4 samples.

Results

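The small heat shock proteins described here are 7 human genes, CRYAB, HSPB1, HSPB2, HSPB3, HSPB6, HSPB7 and HSPB8, of 29387 genes listed in all 4 libraries. They were taken by symbol. The family was chosen by the CPM values of CRYAB, already known to be higher in the invasive than in the control libraries, so the differences of all 7 members between these groups are given as a description, with no test. The cells were the established glioblastoma line U87MG. The tested cells were 2 highly invasive populations (invasive 1 and invasive 2), recovered from organotypic slices (sections of living brain maintained in a dish). They were set against 2 poorly invasive control populations (control 1 and control 2). All 4 populations came from parental cells that spent 1 week on slices in a neural stem cell medium that held FGF and EGF, were then isolated, and were grown in culture for 3 to 5 days before polyadenylated RNA was sequenced. Each population gave 1 library, and no separate cultures of a population were sequenced. The series' design sets invasive 1 against control 1 (pair 1) and invasive 2 against control 2 (pair 2). The titles call the invasive populations clones and the design text calls them populations. The sources used here do not say how a population was isolated from the slices, or from which species the slices came.

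Small heat shock proteins are chaperones that use no ATP. They share a conserved alpha-crystallin domain, assemble into oligomers, hold partly unfolded proteins in a soluble state and pass them to the HSP70 system for refolding or to degradation. HSPB1 and HSPB8 are made in many tissues, whereas HSPB2, HSPB3, HSPB6 and HSPB7 are best known from heart and skeletal muscle. CRYAB (alpha B-crystallin) is abundant in lens and muscle and in the brain in glia, and it is expressed in many gliomas.

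The libraries held 13829871 to 17817756 counts. A count of 0 allows a level of up to 0.168 to 0.217 CPM (counts per 1000000 counts), which is the level of 3 counts and covers counting error only. VIM, NES and CD44, expressed by glioblastoma lines, summed to 8924 CPM in invasive 1 and 10261 CPM in invasive 2. The controls had 10333 CPM (control 1) and 9759 CPM (control 2). The sum was mostly VIM. CD44 had 1554 and 1755 CPM in the invasive libraries, against 2146 CPM in control 1 and 2162 CPM in control 2. NES had 33.7 and 15.7 CPM, against 41.5 CPM in control 1 and 19.5 CPM in control 2. Of 9 astrocyte markers, 3 had at most 3 counts in each library (AQP4, ALDH1L1 and S100B), while CLU, GJA1, SLC1A3 and ALDOC were well above that level, and the list summed to 774 and 759 CPM in the invasive libraries against 794 and 639 CPM in the controls. Of 8 oligodendrocyte markers listed, 5 had at most 3 counts, MOG, MAG, MOBP and SOX10 among them, while MBP had 5 and 3 counts in the invasive libraries against 19 and 6 in the controls, and OLIG2 had 9 and 14 against 31 and 13. Of 5 neuronal markers, RBFOX3 and STMN2 had at most 3 counts, and the list summed to 48.7 and 35.8 CPM in the invasive libraries against 44.7 and 48.8 CPM in the controls, mostly from SNAP25. Of 4 microglial markers listed, PTPRC, CX3CR1 and P2RY12 had at most 3 counts, and CSF1R gave nearly all of the summed 18.2 and 10.2 CPM in the invasive libraries against 21.4 and 10.8 CPM in the controls. Endothelial markers summed to 1.88 and 1.59 CPM in the invasive libraries against 1.40 and 0.907 CPM in the controls, and 4 of 6 striated muscle markers listed (MYH7, ACTA1, CKM and DES) had at most 3 counts.

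CRYAB, which binds unfolding proteins and intermediate filaments, had 9.76 CPM in invasive 1 and 15.3 CPM in invasive 2, against 1.796 CPM in control 1 and 1.23 CPM in control 2. Both invasive libraries lay above both controls. These levels rested on 151 and 212 counts in the invasive libraries and on 32 and 19 in the controls. The level was 5.44 times the control's in pair 1 (95% interval 3.69 to 8.23) and 12.5 times in pair 2 (7.78 to 21.1). These intervals, like those below, are exact binomial intervals on the 2 counts and cover counting error only, not differences between cultures. In ranks of the log2 difference among the 14231 genes that passed the filter on low counts, CRYAB stood at 21 in pair 1 and 10 in pair 2. In bulk RNA, more cells that express a gene and more RNA per cell cannot be told apart.

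**Figure D1:**
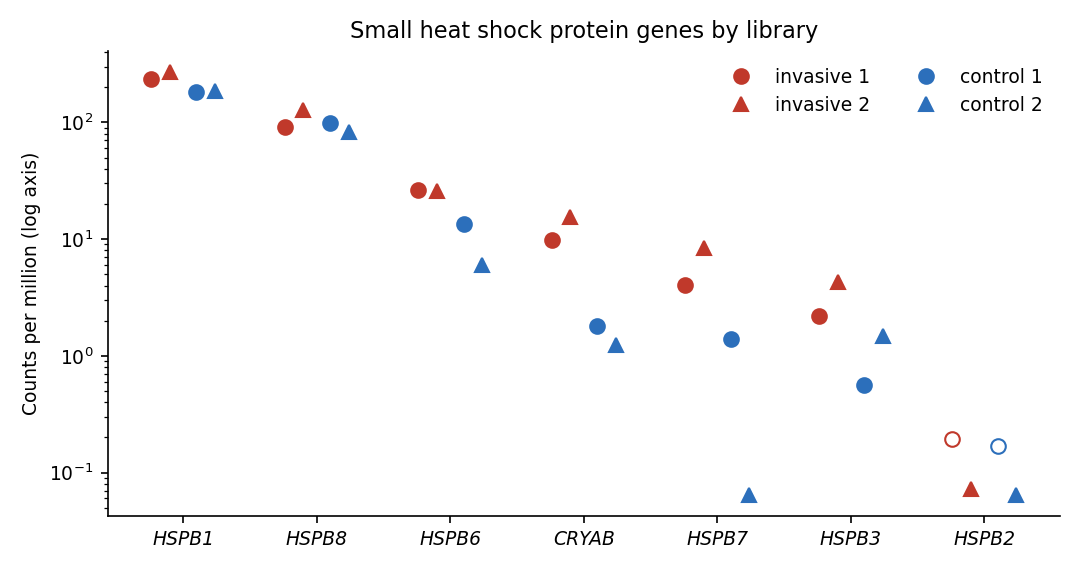
Level of each gene in each library, in CPM on a log axis, with invasive libraries in red left of controls in blue, circles for pair 1 and triangles for pair 2. Open circles mark libraries with 0 counts, drawn at the level of 3 counts. CRYAB, HSPB1, HSPB3, HSPB6 and HSPB7 were higher in both invasive libraries than in both controls, HSPB8 overlapped between the groups, and HSPB2 had 0 or 1 count per library.

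The members best known from muscle followed the same order between the groups, apart from HSPB2. Striated muscle markers summed to 43.4 CPM in invasive 1 and 35.7 CPM in invasive 2. The controls had 52.0 CPM (control 1) and 51.4 CPM (control 2). The sum was mostly TNNT1, so its order between the groups is that of a single gene. TTN had 5.30 and 6.72 CPM in the invasive libraries, against 4.55 CPM in control 1 and 6.22 CPM in control 2. HSPB6 (HSP20), a partner of 14-3-3 proteins in smooth muscle relaxation, had 26.4 CPM in invasive 1 and 25.6 CPM in invasive 2, against 13.4 CPM in control 1 and 6.02 CPM in control 2. The invasive libraries were alike, at a ratio of 0.968 (0.837 to 1.12) of invasive 2 to invasive 1, and the controls were not, at 0.449 (0.349 to 0.573) of control 2 to control 1. The ratio of invasive to control was 1.97 (1.68 to 2.32) in pair 1 and 4.25 (3.37 to 5.40) in pair 2, and the lower level of control 2 goes with the larger ratio in pair 2. The mean log2 difference of HSPB6 over the pairs was 1.52, and it was 0.95 without control 2. An antisense gene, AC002398.2, shares 38.2% of the exonic bases of HSPB6, and the sources used here do not say whether reads were counted by strand. AC002398.2 is not among the genes listed in all 4 libraries, so reads from it could have been assigned to HSPB6 if strand was not used.

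HSPB7, a cardiac and skeletal muscle member that binds filamin C, had 4.07 CPM in invasive 1 and 8.32 CPM in invasive 2, against 1.40 CPM in control 1 and 0.0648 CPM in control 2. The last value is a single count, against 115 counts in invasive 2, and pair 1 had 63 counts in the invasive library and 25 in the control. The ratio was 2.90 (1.8 to 4.82) in pair 1 and 128 (22.6 to 5116) in pair 2. HSPB7 ranked first of the 14231 genes in pair 2 and 163rd in pair 1. The size of its difference in pair 2 therefore depends on control 2, whose level was 0.0461 of that of control 1 (0.00112 to 0.282). The mean log2 difference of HSPB7 was 3.46, and without control 2 it was 1.96.

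HSPB3, a short member found with HSPB2 in muscle, had 2.20 CPM in invasive 1 and 4.27 CPM in invasive 2, against 0.561 CPM in control 1 and 1.49 CPM in control 2. It had 34 and 59 counts in the invasive libraries and 10 and 23 in the controls. The ratio was 3.92 (1.89 to 8.89) in pair 1 and 2.86 (1.74 to 4.86) in pair 2. Among the controls its order was the reverse of that of HSPB6 and HSPB7, since control 2 had the higher level, at 2.65 (1.21 to 6.25) times control 1. Its mean log2 difference was 1.60, and without control 1 it was 0.98.

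HSPB1 (HSP27), an actin-associated chaperone and the most abundant member, had 235 CPM in invasive 1 and 271 CPM in invasive 2, against 184 CPM in control 1 and 185 CPM in control 2. The ratio was 1.28 (1.22 to 1.34) in pair 1 and 1.46 (1.39 to 1.54) in pair 2, a smaller ratio than for the preceding members on far more counts (2863 to 3748 per library). The controls stood at 1.01 (0.959 to 1.06). The pseudogenes of HSPB1 can share reads with it, and the sources used here do not say how such reads were counted.

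HSPB8 (HSP22), which works with the co-chaperone BAG3 in selective autophagy, had 91.6 CPM in invasive 1 and 128 CPM in invasive 2, against 98.1 CPM in control 1 and 82.3 CPM in control 2. The groups overlapped. The ratio was 0.934 (0.870 to 1.002) in pair 1 and 1.56 (1.45 to 1.68) in pair 2.

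HSPB2, the neighbour of CRYAB and a partner of HSPB3 in muscle, had 0 counts in invasive 1 and 1 in invasive 2, against 0 in control 1 and 1 in control 2. It was the single member that did not pass the filter on low counts, and no ratio is given. CRYAB transcripts annotated on the opposite strand share 46.9% of its exonic bases, so reads there could have been lost or assigned to CRYAB if strand was not used. The shared bases are 20.6% of those of CRYAB. HSPB2-C11orf52, a further gene annotated on the same strand as HSPB2, shares 53.9% of the exonic bases of HSPB2. Use of the strand would not separate its reads from those of HSPB2. It is not among the genes listed in all 4 libraries.

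**Figure D2:**
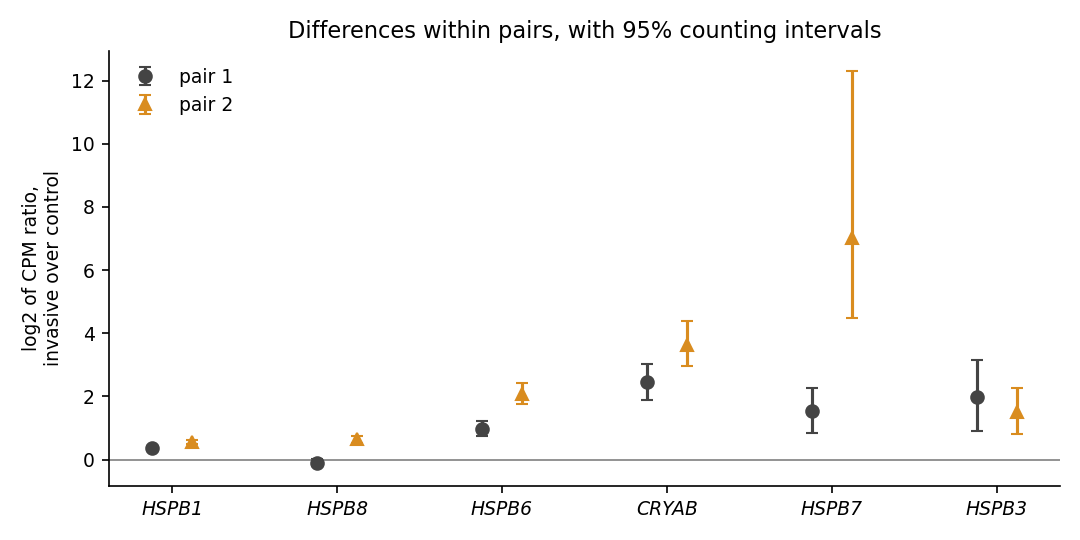
Ratio of CPM in the invasive library to CPM in its control, on the log2 scale, for the 6 members that passed the filter, with circles for pair 1 and triangles for pair 2. Bars are 95% exact intervals for counting error. CRYAB lies at 2.44 and 3.64, HSPB7 at 1.54 and 7.005 with a wide bar from a single control count, and HSPB8 falls on either side of 0.

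Over the family, 3 of the 6 members that passed the filter (CRYAB, HSPB3 and HSPB7) were at least 2-fold higher in the invasive library of both pairs, on the log2 CPM scale with a prior count of 2. Of all genes tested, 1.2% were. Separately by pair the members numbered 3 in pair 1 (3.23% of all genes) and 4 in pair 2 (4.36%). For 5 of the 6, CRYAB, HSPB1, HSPB3, HSPB6 and HSPB7, the invasive library was higher in both pairs (36% of all genes), and both invasive libraries lay above both controls (23.7%). HSPB8 was the 1 member with opposite directions in the pairs (34.7%). The median log2 difference of the 6 was 1.21 in pair 1 and 1.75 in pair 2, and that of all genes tested was 0.04 and 0.01. The members were chosen with this contrast in view, so these shares describe the family and carry no weight as a test. A gene can pass the filter through the level of a single group, which favours genes that differ and also bears on these counts and medians. HSPB7 had 1 count in control 2 and HSPB3 had 10 in control 1, at or below the filter's minimum count of 10.

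In counts, the family was mostly HSPB1 and HSPB8. HSPB1 made up 63.7% of the family's counts in invasive 1 and 59.8% in invasive 2, against 61.4% in control 1 and 67.0% in control 2. CRYAB, HSPB3, HSPB6 and HSPB7 together made up 11.5% and 11.8% in the invasive libraries, against 5.74% in control 1 and 3.18% in control 2. Their summed level was 42.5 CPM in invasive 1 and 53.5 CPM in invasive 2, against 17.2 CPM in control 1 and 8.81 CPM in control 2. All 7 together summed to 370 and 453 CPM in the invasive libraries, against 299 CPM in control 1 and 277 CPM in control 2.

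Levels of different genes were ordered per kilobase of annotated exon. HSPB1 had the highest level in each library, at 144 and 166 CPM per kilobase in the invasive libraries and 112 and 113 in the controls. HSPB8 came next, at 32.0 and 44.9 CPM per kilobase in the invasive libraries against 34.3 and 28.8 in the controls. HSPB6 followed HSPB8 in each library, at 15.4 and 14.9 CPM per kilobase in the invasive libraries against 7.79 and 3.50 in the controls. CRYAB had 3.22 and 5.05 CPM per kilobase in the invasive libraries, against 0.592 and 0.406 in the controls. The order of CRYAB, HSPB3 and HSPB7 among themselves differed between libraries and changed when the median length of the coding transcripts was used in place of all exonic bases, so no order is given for these 3. CRYAB has 3034 exonic bases over 16 coding transcripts whose median length is 868 bases, which makes its level per kilobase depend on which of them are made.

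The promoters of the members were searched for a motif, since heat shock genes are classically driven by HSF1. This factor binds inverted repeats of the bases GAA. RefSeq promoter sequences (GRCh38.p14) were at hand for HSPB1, HSPB3, HSPB6, HSPB7 and HSPB8, and not for CRYAB or HSPB2. Each line gives the 250 bases before RefSeq's start, 5′ to 3′ on the strand of the gene. That start differs from the start of the gene in the files and in GENCODE, so the windows of HSPB6, HSPB7 and HSPB8 lie within the gene as annotated there and those of HSPB1 and HSPB3 overlap it. Capitals mark matches to GAANNTTC or TTCNNGAA, the pair of arrangements that an inverted repeat of GAA can take. Both motifs read the same on either strand.
HSPB6, chr19:35757030-35757279, minus strand: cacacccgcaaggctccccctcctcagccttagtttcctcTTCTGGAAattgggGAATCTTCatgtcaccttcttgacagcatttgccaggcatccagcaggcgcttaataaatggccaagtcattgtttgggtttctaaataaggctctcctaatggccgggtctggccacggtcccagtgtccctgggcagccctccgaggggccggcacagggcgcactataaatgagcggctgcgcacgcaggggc
HSPB7, chr1:16018044-16018293, minus strand: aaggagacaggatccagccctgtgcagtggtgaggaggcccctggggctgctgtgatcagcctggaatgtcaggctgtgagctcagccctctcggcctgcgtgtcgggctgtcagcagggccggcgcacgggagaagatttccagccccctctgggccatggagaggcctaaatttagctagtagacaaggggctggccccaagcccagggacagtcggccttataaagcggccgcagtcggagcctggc
HSPB3, chr5:54455449-54455698, plus strand: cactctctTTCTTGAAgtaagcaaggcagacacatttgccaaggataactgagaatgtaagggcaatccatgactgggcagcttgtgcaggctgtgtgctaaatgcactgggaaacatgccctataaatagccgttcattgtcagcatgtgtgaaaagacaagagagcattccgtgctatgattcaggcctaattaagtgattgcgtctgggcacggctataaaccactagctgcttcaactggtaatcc
HSPB1, chr7:76302423-76302672, plus strand: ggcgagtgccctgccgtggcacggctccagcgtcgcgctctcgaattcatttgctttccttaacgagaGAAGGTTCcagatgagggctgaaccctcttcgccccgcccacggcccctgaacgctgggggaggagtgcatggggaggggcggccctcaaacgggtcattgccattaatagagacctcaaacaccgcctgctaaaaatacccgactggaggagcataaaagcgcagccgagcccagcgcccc
HSPB8, chr12:119178681-119178930, plus strand: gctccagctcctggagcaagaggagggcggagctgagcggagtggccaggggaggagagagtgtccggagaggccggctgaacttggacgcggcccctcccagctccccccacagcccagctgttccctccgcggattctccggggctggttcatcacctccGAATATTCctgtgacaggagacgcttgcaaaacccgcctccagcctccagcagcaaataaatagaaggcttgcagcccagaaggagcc

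At least 1 of these motifs lay in 4 of the 5 windows, HSPB7 being the one with none, and in 11.6% of 35116 promoter windows of the same length. HSPB6 held both arrangements, the first beginning 210 bases and the second 196 bases before the start. The match of HSPB1 began 182 bases before the start, that of HSPB3 242 bases and that of HSPB8 88 bases. The letters TATAAA, in either direction, were found in the windows of HSPB3, HSPB6 and HSPB7 and in 10.7% of all windows. They began 32, 29 and 28 bases before the start in HSPB3, HSPB6 and HSPB7 (in HSPB3 a further match began at 128), and the windows of HSPB1 and HSPB8 held none. These are matches of letters in a window, not binding sites. The windows with a GAA motif included that of HSPB8, which had opposite directions in the pairs. HSPB7, whose window had none, was higher in the invasive library of both pairs. Whether HSF1 acted on any member was not tested.

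CRYAB and HSPB2 lie on chromosome 11 of GRCh38, CRYAB on the minus strand from 111908565 to 111923722 and HSPB2 on the plus strand from 111912242 to 111914093, within the annotated span of CRYAB. The genes around them were examined to see whether the difference extended along the chromosome. Of 6 other genes within 100 kb, 4 passed the filter and 0 were called in either direction (edgeR's quasi-likelihood test blocked on the pair, at a Benjamini-Hochberg adjusted p under 0.05). Over all genes tested, 0.274% were called, 0.239% as higher and 0.0351% as lower. In the same test 1 of the 4 had an unadjusted p under 0.05, as had 18.2% of all genes tested, and DESeq2 called 0 of them. DIXDC1, a Wnt pathway protein that lies next to C11orf52 on the right, had a log2 fold change of 0.34 ± 0.13 (SE, adjusted p = 0.254), with 23.1 and 22.6 CPM in the invasive libraries against 18.8 CPM in control 1 and 16.8 CPM in control 2. C11orf1, FDXACB1 and ALG9, an enzyme of N-glycan assembly, had log2 fold changes of 0.00 ± 0.24, −0.18 ± 0.35 and −0.01 ± 0.20. C11orf52 had 0 counts in each library.

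**Figure D3:**
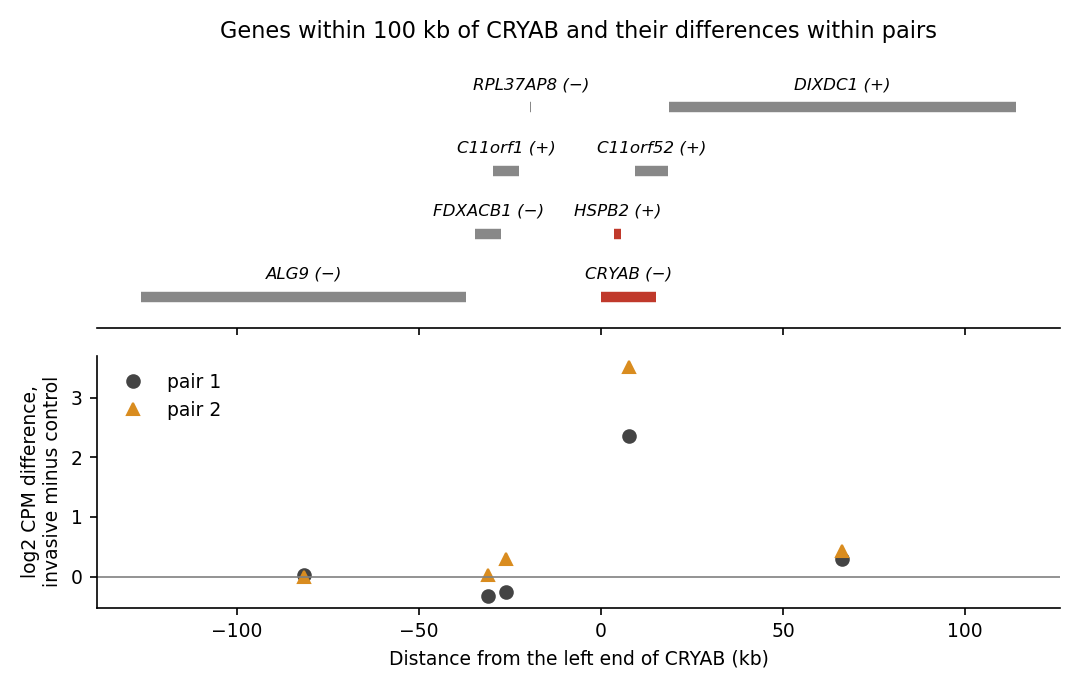
Upper panel, the genes within 100 kb of CRYAB as bars by distance in kilobases from its left end, with members in red and the strand in brackets. Lower panel, the log2 CPM difference of invasive minus control in each pair at the middle of each gene that passed the filter, where CRYAB lies at 2.36 and 3.51 and the 4 other genes between −0.33 and 0.42.

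Genes of the other chaperone systems, which receive substrates from small heat shock proteins or are induced by heat with them, were examined as 5 lists of 61 genes in all. Of these, 58 passed the filter, and 0 were called higher or lower by edgeR's quasi-likelihood test, as by DESeq2. Over all 14231 genes tested, edgeR called 0.274% and DESeq2 called 171 genes. At such shares, 0 calls among 58 genes says little about these lists. At an unadjusted p under 0.05, 3 were higher and 12 lower, 15 of 58 where 18.2% of all genes tested had such a p. The median log2 fold change was −0.10 for the 58 genes and 0.01 for all genes tested.

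The chaperonins, ring complexes that fold proteins such as actin and tubulin in a closed chamber, had negative differences in both pairs for 10 of 10 genes (29.3% of all genes tested were lower in both pairs). Their median log2 fold change was −0.29. The largest was that of HSPD1, the mitochondrial HSP60, with 691 and 675 CPM in the invasive libraries against 952 CPM in control 1 and 847 CPM in control 2 (−0.41 ± 0.11, adjusted p = 0.143). CCT2 and CCT4, subunits of the cytosolic ring, had −0.39 ± 0.10 and −0.32 ± 0.10.

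Among 10 genes of HSP90 and its co-chaperones, 0 were higher in both pairs and 5 were lower in both. Of all genes tested, 36% and 29.3% were. The median log2 fold change of the list was −0.15. FKBP5, an immunophilin that binds HSP90, had −0.48 ± 0.16 (adjusted p = 0.204). HSP90AB1, the constitutive cytosolic HSP90, had 1763 and 2124 CPM in the invasive libraries against 2416 CPM in control 1 and 2431 CPM in control 2 (−0.34 ± 0.12, adjusted p = 0.217). TRAP1, the mitochondrial form, had −0.30 ± 0.11.

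Of 14 HSP70 and HSP110 genes tested, 6 were higher and 4 lower in both pairs (36% and 29.3% of all genes tested), with a median log2 fold change of −0.03. HSPA1L had 1.75 and 2.68 CPM in the invasive libraries against 0.954 CPM in control 1 and 0.712 CPM in control 2 (log2 fold change 1.35 ± 0.41, adjusted p = 0.186). HSPA1B, the classical heat-inducible HSP70, had 22.6 and 30.1 CPM against 18.6 CPM in control 1 and 13.0 CPM in control 2 (0.72 ± 0.25, adjusted p = 0.244). HSPA6, which is also heat-inducible, had 0.52 ± 0.43, and its groups overlapped. It had 10 and 26 counts in the invasive libraries against 11 in control 1 and 16 in control 2. The lower side held HSPA14, a ribosome-associated HSP70, with 58.1 and 59.5 CPM in the invasive libraries against 71.7 CPM in control 1 and 79.3 CPM in control 2 (−0.38 ± 0.10, adjusted p = 0.141), and HSPA9, the mitochondrial HSP70, at −0.32 ± 0.10. HSPA1A and HSPA1B are near-identical and lie side by side with HSPA1L, so counts of these genes are uncertain, and HSPA1A had 3 to 7 counts per library.

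The J-domain proteins, which bring substrates to HSP70, gave 3 genes higher and 4 lower in both pairs among 13 tested (median −0.04). Over all genes tested, the shares were 36% and 29.3%. DNAJB4 had 21.5 and 40.9 CPM in the invasive libraries against 15.8 CPM in control 1 and 11.9 CPM in control 2 (1.09 ± 0.41, adjusted p = 0.312). DNAJB9, a member of the endoplasmic reticulum, had 0.77 ± 0.21 (adjusted p = 0.163) and DNAJB2 0.31 ± 0.14. Among 11 genes of the HSF transcription factors and the BAG co-chaperones with STUB1, 3 were higher and 2 lower in both pairs (median −0.01). The shares over all genes tested were again 36% and 29.3%. HSF4, STUB1 (a ubiquitin ligase of chaperones) and HSF2 had 0.46 ± 0.21, 0.23 ± 0.10 and −0.20 ± 0.13.

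**Figure D4:**
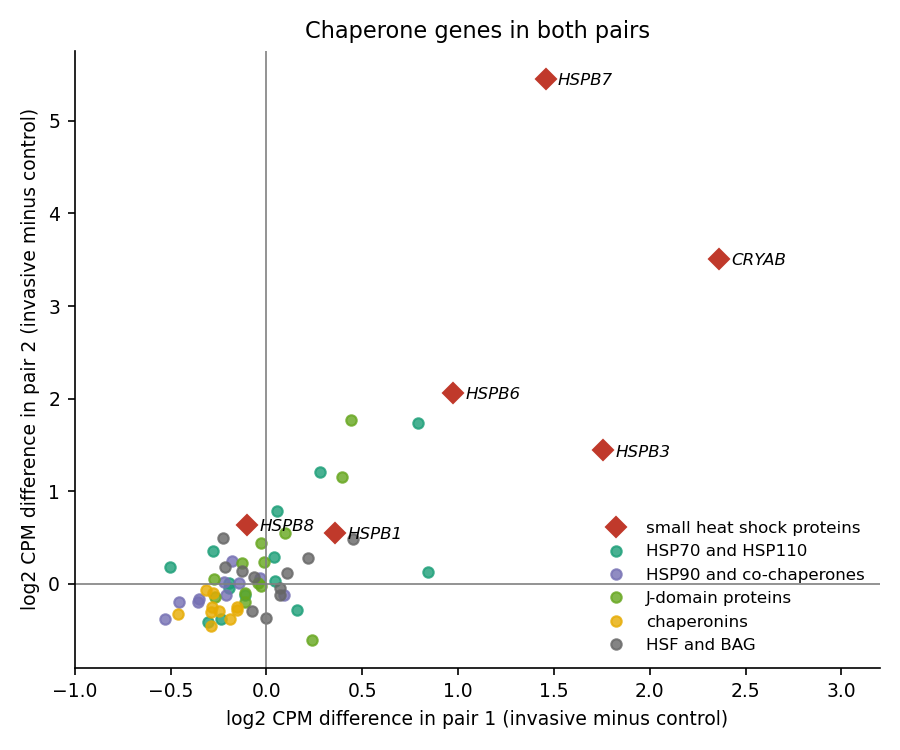
Log2 CPM difference (invasive minus control) in pair 1 on the horizontal axis and in pair 2 on the vertical axis for the 6 members as red diamonds and 58 other chaperone genes as circles coloured by list. CRYAB, HSPB3, HSPB6 and HSPB7 lie in the upper right, and the 10 chaperonins lie below 0 on both axes.

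Known partners of the family were examined as a further list of 8 genes, of which 6 passed the filter. Of these, 0 were called by edgeR, where 0.274% of all genes were called. At an unadjusted p under 0.05 there was 1 of the 6, against 18.2% of all genes tested. SYNPO2, which takes part in BAG3-dependent autophagosome formation, had 4.59 and 4.92 CPM in the invasive libraries against 2.30 CPM in control 1 and 1.75 CPM in control 2 (log2 fold change 1.21 ± 0.29, adjusted p = 0.130). The actin cross-linkers FLNA and FLNC, clients of the HSPB8 and BAG3 complex, had 0.10 ± 0.14 and −0.03 ± 0.21, with opposite directions in the pairs. The intermediate filament genes DES and GFAP, whose products CRYAB binds, had at most 4 counts in a library, whereas VIM, the main intermediate filament gene of glioma cells, had 7336 and 8490 CPM in the invasive libraries against 8146 CPM in control 1 and 7577 CPM in control 2 (log2 fold change −0.01 ± 0.13, adjusted p = 0.972). HSPB11, which carries a family symbol but encodes an intraflagellar transport protein, had −0.11 ± 0.11, and HSPB9 had at most 1 count. Of the crystallins of other families, 2 passed the filter, CRYGS at 1.01 ± 0.36 (adjusted p = 0.227) and CRYBG3 at 0.10 ± 0.12.

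The protein-coding genes with the profile most like that of CRYAB were found by the Euclidean distance between log2 CPM values centred on their mean over the 4 libraries, among 12302 genes. They were SNCAIP, a synuclein-interacting protein, at a distance of 0.31, COL4A1, a basement membrane collagen chain, at 0.69, ERMN, a cytoskeletal protein of oligodendrocytes, at 0.80, the procollagen protease ADAMTS14 at 0.83 and the kinase gene CDK15 at 0.84. HSPB6 lay at 1.56, HSPB3 at 1.82, HSPB7 at 1.85, HSPB1 at 2.53 and HSPB8 at 2.67. ERMN had 33 and 46 counts in the invasive libraries, against 13 in control 1 and 4 in control 2, while the oligodendrocyte markers had summed levels of 124 and 90.2 CPM in the invasive libraries against 107 CPM in control 1 and 88.5 CPM in control 2, nearly all from CNP. SNCAIP had 24 and 29 counts in the invasive libraries, against 4 in control 1 and 1 in control 2. CDK15 had 46 and 32 counts, against 9 in control 1 and 3 in control 2. With so few counts in control 2, the distances of SNCAIP, CDK15 and ERMN depend on the prior count of 2. So does that of HSPB7, which had 1 count in control 2. With 4 libraries, likeness over these values is a description.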

How the data were processed

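Per the file headers, the authors deposited raw whole-number read counts per Ensembl gene, and a score per gene, which is a value they had normalized and rounded, by steps that no source used here describes. The submitters' processing notes name HTSeq, DESeq2, Bowtie, TopHat2 2.0.12, bcl2fastq 1.8.4 and the build GRCh38, with no roles. The score files of pair 2 list 10252 genes and leave out HSPB2, HSPB3 and HSPB7, and the scores served as an alternative. The members, gene lists and tests were chosen with earlier results of these data known.

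The libraries of pair 1 list 32100 genes and those of pair 2 list 33485. Ratios between libraries of different pairs therefore cross different gene lists. Counts were divided by library totals over the 29387 shared genes to give CPM. Genes were filtered by group with filterByExpr (minimum count 10, minimum total 15), which left 14231. The test across genes was edgeR's two-sided quasi-likelihood F test (edgeR 4.0.16, limma 3.58.1, R 4.3.3) blocked on the pair, with TMM factors, a robust prior and p-values adjusted by Benjamini-Hochberg (threshold 0.05). Standard errors were taken from the F statistic. The pairing comes from the design text. Pair differences correlated across genes between the groups (r = 0.283). With 1 residual degree of freedom, the test leans on the prior over all genes. P-values measure the spread between these libraries, which may be technical. Libraries of a group were not duplicates (chi-square per degree of freedom 21.3 between the invasive and 34.1 between the control libraries). Counts were also simulated for the 14231 genes. The changed genes were drawn only from those with more counts, so the shares found do not cover genes with few counts. The calls included 43 of 50 genes with a true log2 change of 1, 43 of 50 at −1, 50 of 50 at 2 and 49 of 50 at −2. They also included 51 of 14031 unchanged genes, so more of the test's calls may be false than the threshold implies. Named genes were the members, the 3 genes with the largest absolute fold change in each chaperone list, the tested genes within 100 kb of CRYAB and the 5 nearest profiles. HSPA14, HSPA9 and the partner and crystallin genes named beyond these were chosen after their values were seen, and some genes of the lists are not reported here. Exon lengths and strands came from GENCODE 29, whose gene coordinates equal those of the files for 6 of the 7 members and differ by 1 base for HSPB6. Alternatives were a fit with no block, DESeq2 1.42.0, RLE factors, no filter, other scalings and prior counts, and leaving out each library.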

Additional observations from a re-analysis of the deposited data

Results flagged for a closer look

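HSPB8 differed in opposite directions in the pairs, with a log2 difference (invasive minus control) of −0.10 in pair 1 and 0.64 in pair 2. In pair 1 the 95% interval of the ratio for counting error, 0.870 to 1.002, included a ratio of 1. Each pair has 1 library per group, so the difference between the pairs was not tested. Of all genes tested, 34.7% had opposite directions.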

How the results depend on the processing

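The mean log2 difference of CRYAB over the pairs was 2.94 and stayed between 2.61 and 3.26 in 8 other settings, including 2.98 with the authors' normalized values. Leaving out a library moved HSPB3 to between 0.98 and 2.21 around 1.60, and HSPB7 to between 1.96 and 4.95 around 3.46. The authors' values give no value over both pairs for HSPB3 and HSPB7. The counts of called genes over all genes depended on the settings, 34 higher and 5 lower as reported. They were 2 and 0 with no replicate block, 80 and 9 with RLE factors, 142 and 29 with DESeq2 and 760 and 693 with no filter. Leaving out a library gave 4 to 83 higher and 0 to 87 lower. The 61 other chaperone genes gave 0 calls in each setting except with no filter, where 10 were called, 4 higher (HSPA1B, HSPA1L, DNAJB4 and DNAJB9) and 6 lower (HSPD1, CCT2, CCT4, HSP90AB1, HSPA9 and HSPA14). The cause was not tested. The neighbours of CRYAB gave 0 calls throughout. Fits that left out a library had no block and assumed that the lone library of a group varies like the others.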
